A study of Mus musculus with 24 samples.

Results

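The genes described here are *Decr2*, which encodes the peroxisomal 2,4-dienoyl-CoA reductase, and 7 other genes of fatty acid beta-oxidation, namely *Abcd3*, *Ehhadh*, *Hsd17b4*, *Acaa1a*, *Scp2*, *Ech1* and *Decr1*. They were taken by name from the deposited table, and all 8 were among its 13998 genes. *Decr2* was selected on its measured difference between the genotypes compared here, and the other 7 were chosen for what they encode. The genotype difference of each is therefore given as a description, without a *P* value, and supports nothing by itself.

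Hypothalamus RNA of 24 male F2 mice was measured by SAGE-Seq, which counts 27-base tags from the 3′ part of each polyadenylated transcript. Of these mice, 12 carried CAST (*cast/cast*) and 12 carried C57BL/6J (*b6/b6*) alleles on both copies of the subcongenic segment of Chr 17, and outside it all were *b6/b6*, so the genotypes differ in every gene of the segment at once. The mice were 10 to 16 weeks old when testing began, and were taken from the 25% tails of the intake distribution after a 10 d choice between a fat/protein and a carbohydrate/protein diet, the *cast/cast* mice with the highest and the *b6/b6* mice with the lowest carbohydrate intake. After a period on chow they were given the same choice again for about 48 h and fasted for 4 h before tissue was taken. Genotype and selected intake thus cannot be told apart in a comparison of the groups.

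Beta-oxidation shortens fatty acids by repeated removal of an acetyl unit. Mitochondria carry out most of it, whereas peroxisomes handle very long and branched chains, which enter through ATP-binding cassette transporters and pass through an acyl-CoA oxidase, a bifunctional hydratase/dehydrogenase and a thiolase. Double bonds of unsaturated fatty acids need auxiliary reductases and isomerases, of which *Decr2* encodes the peroxisomal and *Decr1* the mitochondrial 2,4-dienoyl-CoA reductase.

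SAGE reads a transcript at a single place, next to its last CATG, the site of the anchoring enzyme NlaIII. The tag expected at that place was read from the GENCODE transcripts of GRCm38 for each gene, because every value below counts tags and not whole transcripts. CATG is in capitals, and the tag of *Hsd17b4*, which lies in the coding sequence, is not printed.
Decr2: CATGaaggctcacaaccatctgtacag
Abcd3: CATGtctccttagcaaacttgtgtact
Ehhadh: CATGtcatatggatgtggatataaaat
Acaa1a: CATGggacaccctggttgcaaagccat
Scp2: CATGgataccattaataaaaataactg
Ech1: CATGgggtgtcccagtgtataacttta
Decr1: CATGaatagatctatgcaagaatgtag

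These 7 tags lay in the 3′ UTR, in the last exon of each gene. The tag of *Decr2* was in exon 9 of 9, on the minus strand at chr17:26081301-26081327, within a gene that spans chr17:26081211-26090164. The other genes lie on other chromosomes, *Abcd3* on Chr 3, *Decr1* and *Scp2* on Chr 4, *Ech1* on Chr 7, *Acaa1a* on Chr 9, *Ehhadh* on Chr 16 and *Hsd17b4* on Chr 18, so that *Decr2* was the only one of the 8 on Chr 17. Its *cast* alleles were read against a reference of the other strain. Whether CAST carries a variant in the *Decr2* tag or its CATG was not examined, and such a variant could change the count. Over all transcripts, 97.3% of 92389 distinct tags occurred in 1 gene only. The tag of *Decr2* was one of the exceptions, since it also occurred in transcripts of *Bptf*, *Gm33432* and *Gm45416*, and the tag of *Scp2* also occurred in *Scp2-ps2*. How tags that match several genes were counted is not given in the sources used here. The levels of *Decr2* and *Scp2* are uncertain at least to that extent. *Bptf*, the one of the 3 that is in the table, averaged 356.8 normalized counts among *b6/b6* and 337.0 in *cast/cast* mice. Beyond whole-tag matches, a stretch of 16 bases of the *Decr2* tag recurs in the expected tags of other genes. Of 13104 genes matched to a tag, 37 held it, *Decr2* included, as described under the other observations.

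Between 7754202 and 13082873 tag hits fell on the table's genes per mouse, and the values below are normalized counts, that is tag hits divided by the size factor of the library. The 4 libraries that correlated least with the others were *b6/b6* replicates 12 and 6 and *cast/cast* replicates 6 and 4, with median correlations of 0.835, 0.870, 0.857 and 0.894, against 0.907 to 0.950 in the remaining 20. These 4 had study numbers of 27, 42, 72 and 15, in a series that ran from 15 to 364. Several results below are given with and without them. The tests of intake and of marker sums were not repeated without these 4.

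*Decr2* had the largest log2 difference of the 8 genes with all mice. In *b6/b6* mice its normalized counts ran from 81.4 to 480.7 with a median of 134.7, and in *cast/cast* mice from 33.3 to 119.7 with a median of 92.1. The genotypes overlapped, but 9 of the 12 *b6/b6* mice exceeded the highest *cast/cast* mouse and 4 *cast/cast* mice were under the lowest *b6/b6* mouse. The means were 183.6 ± 128.4 (SD, n = 12) among *b6/b6* and 84.4 ± 29.8 (n = 12) in *cast/cast*, and the log2 difference, *cast/cast* minus *b6/b6* on the log2(normalized count + 1) scale, was -0.99 with a standard error (SE) of 0.27.

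The *b6/b6* mean of *Decr2* was 129.9 without the pair of *b6/b6* libraries that stood apart. *b6/b6* replicate 6 had 423.3 and replicate 12 had 480.7 normalized counts of *Decr2*, while the other 10 *b6/b6* mice had 81.4 to 173.7. Among *cast/cast* mice the lowest values were 33.3 in replicate 8, 38.1 in replicate 4, 59.2 in replicate 5 and 61.7 in replicate 6, and the other 8 had 86.1 to 119.7. Without *b6/b6* replicates 6 and 12 the log2 difference of *Decr2* was -0.69 (SE 0.21). Without all 4 libraries, which left *cast/cast* replicates 8 and 5 in, it was -0.55 (SE 0.20). The ratio of *b6/b6* to *cast/cast* means went from 2.17 with all mice to 1.54 without the *b6/b6* pair and to 1.42 without all 4, which is below the 1.5 required for a call.

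A gene was called where limma gave a nominal *P* no higher than 0.01 and the means differed at least 1.5-fold in the same direction. Over all 13998 genes, 208 (1.49%) were called, of which 142 (1.01%) were lower and 66 (0.471%) higher in *cast/cast*. After rescaling all libraries to 1 common total, the split was 187 lower and 43 higher. Of the 8 genes, 1 was called, *Decr2*, the gene that was selected on its difference between these genotypes. The genotypes separated without overlap in 0.336% of all genes and in 0 of the 8.

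**Figure D1:**
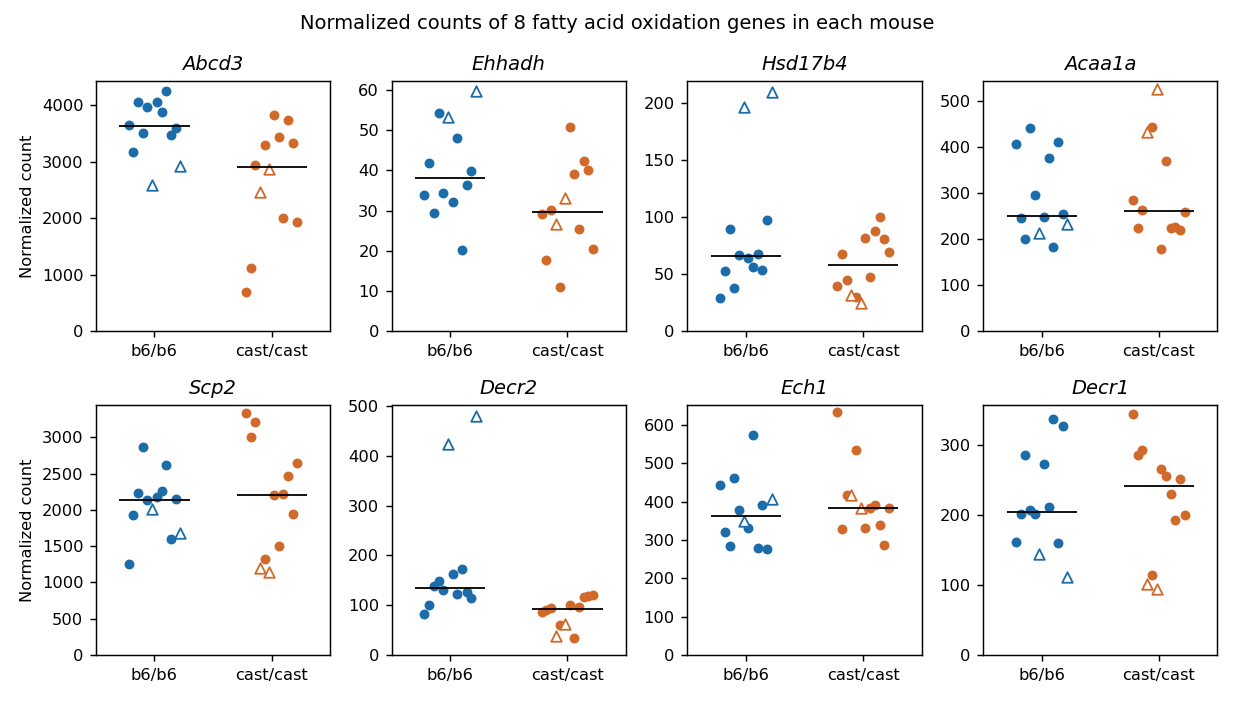
Normalized counts (y axis, from 0) of the 8 genes in each of the 12 *b6/b6* (blue) and 12 *cast/cast* (orange) mice. Horizontal lines are medians, and open triangles are the 4 libraries that correlated least with the others. The pair of *b6/b6* triangles lies far above all other mice for *Decr2* and *Hsd17b4*, and all 8 genes overlap between the genotypes.

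*Abcd3* encodes a peroxisomal membrane protein, a transporter that carries acyl-CoA into the organelle. Its normalized counts ran from 2591 to 4256 with a median of 3628 among *b6/b6* and from 701 to 3838 with a median of 2911 in *cast/cast* mice. The SD was larger in *cast/cast* mice, with means of 3596 ± 500 (SD, n = 12) among *b6/b6* and 2642 ± 1015 (n = 12) in *cast/cast*. The lowest *cast/cast* values were 701 in replicate 1, 1123 in replicate 2, 1931 in replicate 12 and 2006 in replicate 9, none of which was among the 4 libraries named above. Together with replicate 4 they lay below all *b6/b6* mice. The log2 difference of *Abcd3* was -0.58 (SE 0.22) with all mice and -0.68 (SE 0.24) without the 4 libraries.

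The bifunctional enzymes catalyse the hydration and dehydrogenation steps, *Ehhadh* for the L- and *Hsd17b4* for the D-hydroxy intermediates. *Ehhadh* was the lowest of the 8, with 20.3 to 59.8 normalized counts in *b6/b6* (median 38.1) and 10.9 to 50.9 in *cast/cast* mice (median 29.6), which is 12 to 69 tag hits per library. Its means were 40.3 ± 11.6 and 30.5 ± 11.3 (SD, n = 12 each), and its log2 difference was -0.43 (SE 0.22) with all mice and -0.34 (SE 0.24) without the 4 libraries. The genotypes overlapped over most of their range.

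*Hsd17b4* resembled *Decr2* in the libraries that stood apart. It had 196.2 normalized counts in *b6/b6* replicate 6 and 209.9 in replicate 12, while the other 10 *b6/b6* mice had 29.4 to 97.1 and the 12 *cast/cast* mice 24.9 to 100.2. The means were 85.1 ± 58.3 among *b6/b6* and 58.9 ± 25.5 in *cast/cast* (SD, n = 12 each), with a log2 difference of -0.41 (SE 0.29). Without the 4 libraries the log2 difference of *Hsd17b4* was 0.06 (SE 0.23), within 1 SE of 0.

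The genes that encode thiolases, which release the acetyl unit, had similar mean counts in both genotypes. *Acaa1a*, the peroxisomal 3-ketoacyl-CoA thiolase, had 183.3 to 440.6 normalized counts in *b6/b6* (median 251.2) and 179.6 to 525.8 in *cast/cast* mice (median 261.0). Its log2 difference was 0.04 (SE 0.19) with all mice, and its highest *cast/cast* values, 525.8 in replicate 6, 444.2 in replicate 5 and 431.8 in replicate 4, came from mice that were low for *Decr2*. *Scp2*, whose longer product is the thiolase for branched chains, had 1258 to 2862 normalized counts in *b6/b6* (median 2139) and 1147 to 3341 in *cast/cast* mice (median 2211), with a log2 difference of 0.01 (SE 0.18). Whether transcripts of its shorter product share the tag in the last exon was not examined. The counts of *Scp2* may therefore not be those of the thiolase alone.

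The other auxiliary enzymes did not share the separation seen for *Decr2*. *Ech1*, a dienoyl-CoA isomerase of peroxisomes and mitochondria, had 276.7 to 573.6 normalized counts in *b6/b6* (median 363.7) and 287.9 to 635.0 among *cast/cast* mice (median 384.3), and its log2 difference was 0.11 (SE 0.14). *Decr1*, the mitochondrial counterpart of *Decr2*, averaged 218.6 ± 72.7 among *b6/b6* and 219.4 ± 81.0 in *cast/cast* mice (SD, n = 12 each), a log2 difference of -0.03 (SE 0.22). *Decr1* was lowest of all *b6/b6* mice in replicates 12 (110.9) and 6 (143.9), the pair in which *Decr2* was highest. It was lowest of all *cast/cast* mice in replicates 6 (93.8) and 4 (101.6), which were also among the 4 lowest *cast/cast* mice for *Decr2*.

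Compared on the log2 scale, *b6/b6* replicates 6 and 12 exceeded the mean of the other *b6/b6* mice by 1.82 for *Decr2*, 1.78 for *Hsd17b4* and 0.64 for *Ehhadh*. The same difference was 0.05 for *Ech1*, -0.17 for *Scp2*, -0.39 for *Acaa1a*, -0.45 for *Abcd3* and -0.85 for *Decr1*, so the 8 genes did not shift in common.

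**Figure D2:**
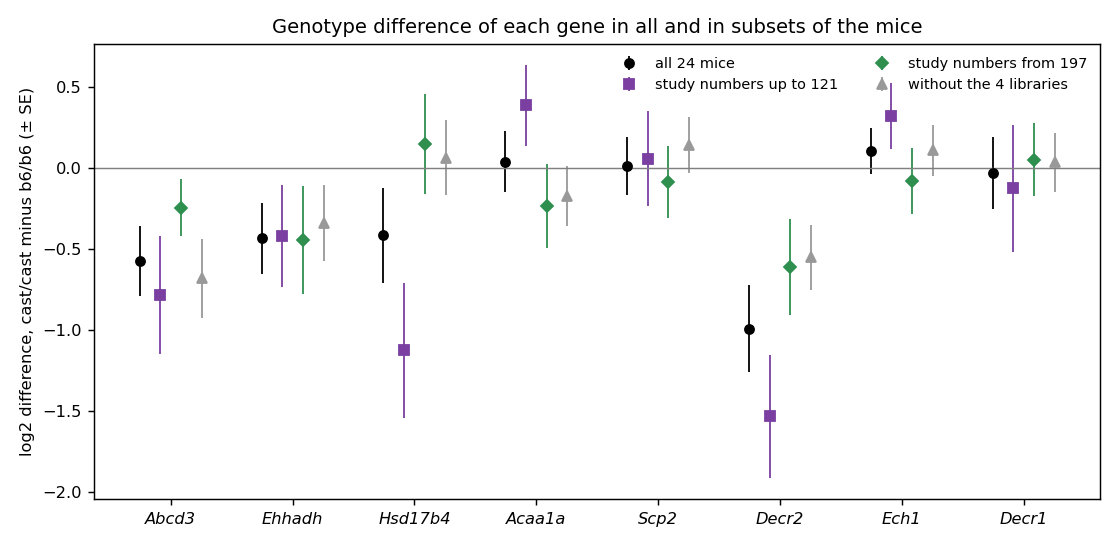
Log2 difference of each gene, *cast/cast* minus *b6/b6* (y axis, log2(normalized count + 1) scale), with its SE, for all 24 mice, for mice with study numbers up to 121, for those from 197, and without the 4 libraries that stood apart. *Decr2* lies below 0 in all 4 fits, from -0.55 to -1.54, whereas *Hsd17b4* lies at -1.13 in the mice with study numbers up to 121 and at 0.15 in those from 197.

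The labels give each mouse a study number and do not say whether it follows time. It was lower in *cast/cast* (median 120.5) than in *b6/b6* mice (median 269.5), so each gene was also compared within the low-number mice (study numbers up to 121, 7 *cast/cast* and 5 *b6/b6*) and the high-number mice (from 197, 5 *cast/cast* and 7 *b6/b6*). *Decr2* averaged 270.8 ± 168.1 (SD) in low-number *b6/b6* and 83.2 ± 25.5 in low-number *cast/cast* mice, against 121.2 ± 22.9 and 86.2 ± 38.3 in the high-number ones. Its log2 difference was -1.54 (SE 0.38) in the low-number and -0.61 (SE 0.30) in the high-number mice. *Hsd17b4* averaged 127.0 ± 70.8 and 56.7 ± 29.0 in low-number *b6/b6* and *cast/cast* mice, and 55.2 ± 19.5 and 62.0 ± 22.6 in the high-number ones.

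A test of the interaction between genotype and these number groups with limma, which the choice of *Decr2* did not use, gave no call after Benjamini-Hochberg adjustment over all genes. The interaction of *Hsd17b4* was 1.28 on the log2 scale (SE 0.53, *P* = 0.0242, adjusted *P* = 0.343) and that of *Decr2* 0.92 (SE 0.50, *P* = 0.0758, adjusted *P* = 0.396). At a nominal *P* no higher than 0.05 stood 1 of the 8 genes, *Hsd17b4*, and 13.5% of all genes, and at an adjusted *P* of at most 0.05 stood 0 of the 8 and 0 of all genes. By edgeR 2 of the 8 had a nominal *P* no higher than 0.05, *Decr2* (1.21, *P* = 0.0177, adjusted *P* = 0.267) and *Hsd17b4* (1.33, *P* = 0.0189, adjusted *P* = 0.268), against 15.6% of all genes, and 0 genes passed an adjusted *P* of 0.05. Without the 4 libraries, all of which were low-number mice, the interaction was 0.38 (SE 0.48, *P* = 0.442) for *Hsd17b4* and 0.01 (SE 0.41, *P* = 0.990) for *Decr2*.

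With genotype in the model, *Decr2* changed by -0.27 on the log2 scale per 100 study numbers (SE 0.11, limma *P* = 0.0224, adjusted *P* = 0.181) and *Hsd17b4* by -0.27 (SE 0.12, *P* = 0.0409, adjusted *P* = 0.218). By limma none of the 8 slopes, and 0 of all genes, passed an adjusted *P* of 0.05, while 2 of the 8 and 21.2% of all genes had a nominal *P* no higher than 0.05. By edgeR 0 of the 8 and 2.75% of all genes passed the adjusted threshold, and 2 of the 8 and 23.1% the nominal one. Without the 4 libraries 1 of the 8 passed the adjusted threshold with limma, *Decr1*, whose slope went from 0.02 (SE 0.10) with all mice to -0.27 (SE 0.08, adjusted *P* = 0.0247), and so did 15.2% of all genes. At a nominal *P* no higher than 0.05 stood then 3 of the 8 and 33.3% of all genes.

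**Figure D3:**
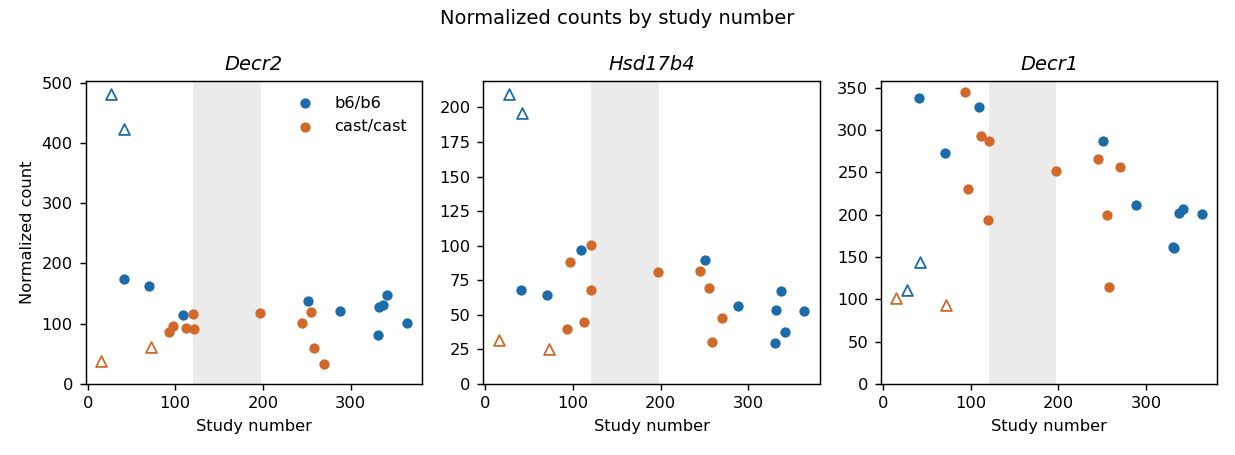
Normalized counts (y axis, from 0) of *Decr2*, *Hsd17b4* and *Decr1* against study number (x axis) in *b6/b6* (blue) and *cast/cast* (orange) mice. Open triangles are the 4 libraries that stood apart, and the grey band is the gap between study numbers 121 and 197. The triangles all lie at study numbers of 72 or below, where *Decr2* and *Hsd17b4* are high in the *b6/b6* pair and *Decr1* is low in all 4.

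The first principal components of the genes off Chr 17, computed without the 8 genes, held 36.9% and 19.7% of the variance between libraries. On the first, *cast/cast* replicates 6, 4, 5 and 8, the 4 lowest *cast/cast* mice for *Decr2*, scored 85.0, 68.4, 55.5 and 50.8. The other *cast/cast* mice scored -30.9 to -7.5. *b6/b6* replicate 1, the lowest *b6/b6* mouse for *Decr2*, scored 54.4, and the other *b6/b6* mice -67.6 to 33.3. Replicates 5 and 8 are not among the 4 libraries left out below. Within genotypes, this pair of components went with 85.5% of the variance of *Decr2*, 86.8% of that of *Hsd17b4*, 83.9% of that of *Acaa1a* and 83.2% of that of *Decr1* (permutation test within genotypes, *P* = 1e-05 for each, the smallest that 100000 resamples can give, adjusted *P* = 2e-05). For *Scp2* the share was 67.6% (adjusted *P* = 9.6e-05). *Ech1* (17.1%, adjusted *P* = 0.209), *Ehhadh* (12.5%, adjusted *P* = 0.279) and *Abcd3* (5.99%, adjusted *P* = 0.459) did not pass this permutation test. Over the 9996 genes with a mean of at least 50 the median share was 56.7%, and 18.8% of them had a share of 80% or more. Without the 4 libraries the share was 67.6% for *Decr2*, 69.1% for *Hsd17b4*, 77.5% for *Acaa1a*, 65.0% for *Decr1*, 50.04% for *Scp2*, 43.9% for *Ech1*, 32.6% for *Abcd3* and 0.73% for *Ehhadh*, against a median of 41.5% over those genes. For this the components were kept as computed from all 24 libraries, so they still carry the 4 that were left out.

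The 8 genes did not rise and fall together among mice. The 28 pairs were correlated over the 24 mice after each genotype's mean was removed. Of these, 7 had an adjusted *P* of at most 0.05 (permutation test within genotypes, two-sided), of which 3 were positive and 4 negative. The share of pairs over all genes that would pass was not computed, so these 7 cannot be read as particular to the 8 genes. *Decr2* correlated with *Hsd17b4* (Pearson's *r* = 0.79, *P* = 5e-05, adjusted *P* = 0.00056, Spearman's rho = 0.75, rho *P* = 7e-05). Without the 2 mice farthest from the median of *Decr2* this *r* was 0.62, and without the 4 libraries 0.54. *Decr2* correlated negatively with *Acaa1a* (*r* = -0.60, permutation *P* = 0.00202, adjusted *P* = 0.0113, rho = -0.64, rho *P* = 0.0013), with *r* = -0.65 without the 2 farthest mice and -0.58 without the 4 libraries.

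*Decr1* correlated with *Scp2* (*r* = 0.76, permutation *P* = 6e-05, adjusted *P* = 0.00056, rho = 0.71, rho *P* = 0.00028, *r* = 0.63 without the 2 farthest mice) and *Acaa1a* with *Ech1* (*r* = 0.62, permutation *P* = 0.00152, adjusted *P* = 0.0106, rho = 0.71, rho *P* = 0.00025, *r* = 0.67 without them). The other negative pairs were *Hsd17b4* with *Acaa1a* (*r* = -0.77), *Decr1* with *Acaa1a* (*r* = -0.58) and *Acaa1a* with *Scp2* (*r* = -0.57). *Decr2* and *Decr1*, the peroxisomal and mitochondrial reductases, had *r* = -0.0009 (permutation *P* = 0.997) with all mice and *r* = 0.28 without the 4 libraries. *Abcd3* and *Ehhadh* took part in none of the 7 pairs. All pairs share the same libraries, and their correlations share the components described above.

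**Figure D4:**
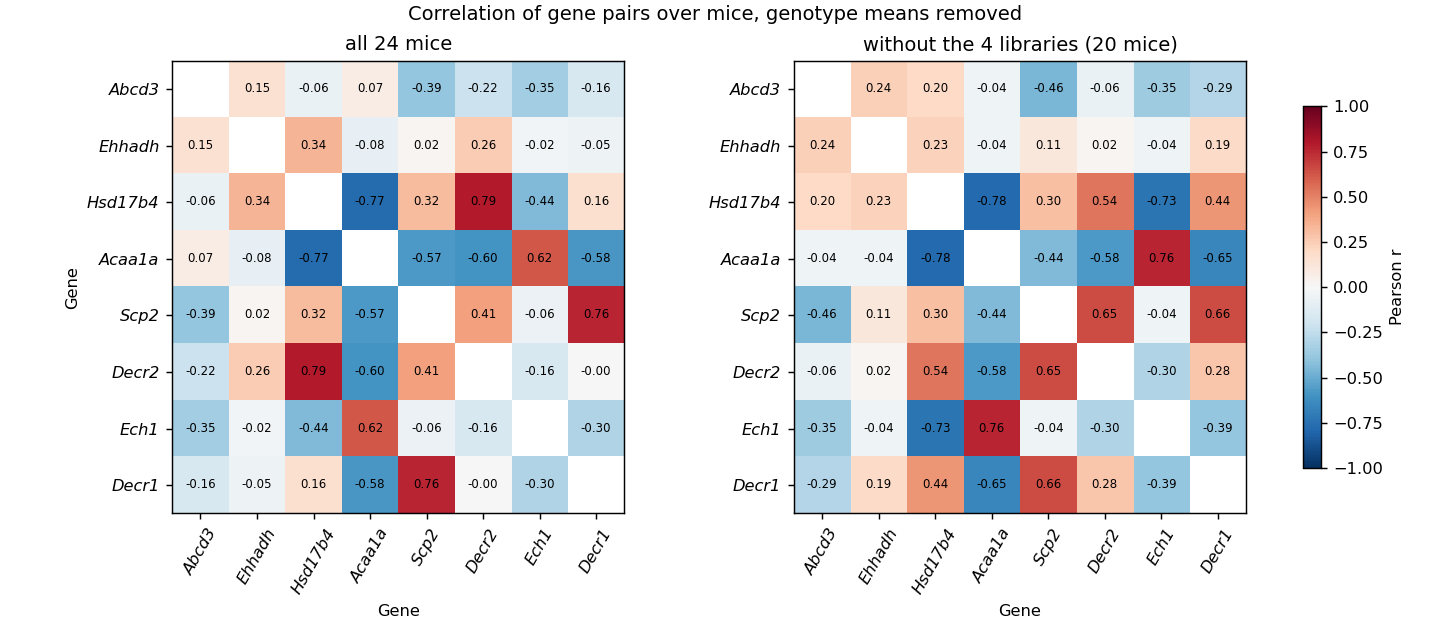
Pearson's *r* of each pair of the 8 genes over mice (rows and columns are genes, colour runs from -1 to 1), after subtracting genotype means from log2(normalized count + 1), with all 24 mice on the left and without the 4 libraries that stood apart, 20 mice, on the right. *Acaa1a* is negatively correlated with *Hsd17b4* in both (-0.77 and -0.78), whereas *Decr2* with *Hsd17b4* goes from 0.79 to 0.54.

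The 5 genes most like *Decr2* over the 24 mice, on the same scale and with genotype means removed, were *Scrn3* (*r* = 0.95), *Lasp1* (*r* = 0.94), *Shisa9* (*r* = 0.93), *Ralgds* (*r* = 0.91) and *Zwint* (*r* = 0.91). None lies on Chr 17 and none is among the 8. Without the 4 libraries their correlations with *Decr2* were 0.90, 0.83, 0.80, 0.82 and 0.77. Of the 9995 genes compared, 270 had an *r* above 0.8 with *Decr2*, and *Hsd17b4* ranked 297th.

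The other genes of the pathway are given from lists made from general knowledge of the enzymes. Of 22 other peroxisomal beta-oxidation genes, 17 were in the table, and of these 0 were called by limma, with 0 at a nominal *P* no higher than 0.05 (8.13% of all genes were) and a median log2 difference of -0.01, against -0.02 over all genes. The genes with the lowest *P* were *Acox3*, an acyl-CoA oxidase for branched chains, at 31.2 ± 9.85 normalized counts among *b6/b6* and 24.1 ± 11.4 in *cast/cast* (SD, n = 12 each, log2 difference -0.41, SE 0.22, limma *P* = 0.0766), and *Crot*, the carnitine octanoyltransferase, at 46.5 ± 52.9 and 22.5 ± 7.38 (log2 difference -0.60, SE 0.33, limma *P* = 0.0783). *Crot* was the 1 gene of this list that edgeR called, and DESeq2 called 0. Over all 13998 genes edgeR called 330 lower and 60 higher in *cast/cast*, and DESeq2 315 and 82.

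Of 17 peroxisome assembly genes (peroxins), 16 were in the table and 0 were called by limma, edgeR or DESeq2. *Pex5l*, a relative of the import receptor that is made in the brain, had a log2 difference of 0.45 (SE 0.19, limma *P* = 0.0248, adjusted *P* = 0.586) and *Pex2*, a membrane ubiquitin ligase of the import machinery, one of -0.53 (SE 0.26, limma *P* = 0.0467, adjusted *P* = 0.608). These were the 2 at a nominal *P* no higher than 0.05, 1 in each direction, and the median over the list was -0.03.

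Of 27 other peroxisomal enzymes and membrane proteins, 23 were in the table, and limma called 0. *Gnpat*, which starts ether lipid synthesis, averaged 111.7 ± 81.8 among *b6/b6* and 64.4 ± 21.05 in *cast/cast* (SD, n = 12 each), with a log2 difference of -0.63 (SE 0.26, limma *P* = 0.0229, adjusted *P* = 0.572). *Mlycd*, the malonyl-CoA decarboxylase, averaged 59.1 ± 26.0 and 40.9 ± 17.6 (log2 difference -0.55, SE 0.26, limma *P* = 0.0438, adjusted *P* = 0.607). These were the 2 genes of the list at a nominal *P* no higher than 0.05, and the median log2 difference was -0.09. Both edgeR and DESeq2 called 1 gene, *Gnpat*, whose log2 difference was -0.26 (SE 0.20, limma *P* = 0.205) without the 4 libraries.

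Of 23 mitochondrial beta-oxidation genes, 22 were in the table, limma called 0, and the median log2 difference was -0.01. *Cpt2*, the carnitine palmitoyltransferase of the inner membrane, averaged 225.0 ± 89.3 among *b6/b6* and 332.3 ± 70.0 in *cast/cast* (SD, n = 12 each), with a log2 difference of 0.71 (SE 0.25, limma *P* = 0.0080, adjusted *P* = 0.469), but its ratio of means, 1.48, was under 1.5. It was the 1 gene of the list at a nominal *P* no higher than 0.05. *Acad10*, an acyl-CoA dehydrogenase, had a log2 difference of 0.61 (SE 0.31, limma *P* = 0.0606). Here edgeR called *Hadhb*, a subunit of the mitochondrial trifunctional protein, and DESeq2 called *Acads*, the short-chain dehydrogenase, both named after their values were seen, and their limma log2 differences were -0.61 (SE 0.42) and -0.65 (SE 0.39).

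The surroundings of *Decr2* on Chr 17 were examined because the genotypes differ in the whole segment. Of the table's genes on Chr 17, 16.1% were called, against 0.688% of those on other chromosomes. The *cast* alleles of the segment were read against a reference of the other strain, and the part of variants within tags was not tested. Within 250 kb of the start of *Decr2* the table held 18 other genes, of which 1 was called, *Wfikkn1*, which encodes a secreted multidomain protein. *Wfikkn1* had 0 to 14.7 normalized counts among *b6/b6* and 15.1 to 89.0 among *cast/cast* mice, and the genotypes did not overlap. Its log2 difference was 3.22 (SE 0.39, limma *P* = 8.44e-09, adjusted *P* = 2.68e-06), the opposite direction from *Decr2*.

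The nearest gene, *Nme4*, a mitochondrial nucleoside diphosphate kinase that lies 1580 bases from *Decr2*, averaged 10.54 normalized counts among *b6/b6* and 6.47 in *cast/cast* (log2 difference -0.51, SE 0.30, limma *P* = 0.103). *Tmem8*, the next on that side, had a log2 difference of -0.24 (SE 0.21, limma *P* = 0.269). On the other side *Rab11fip3*, an effector of Rab11, had one of 0.08 (SE 0.24, limma *P* = 0.750) and *Solh*, a calpain, one of -0.44 (SE 0.53, limma *P* = 0.422). The median over the 18 neighbours was -0.02, with 9 above and 9 below 0. Both edgeR and DESeq2 called 3 neighbours, *Wfikkn1*, *Rgs11* and *Wdr90*, the latter pair named after their values were seen.

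**Figure D5:**
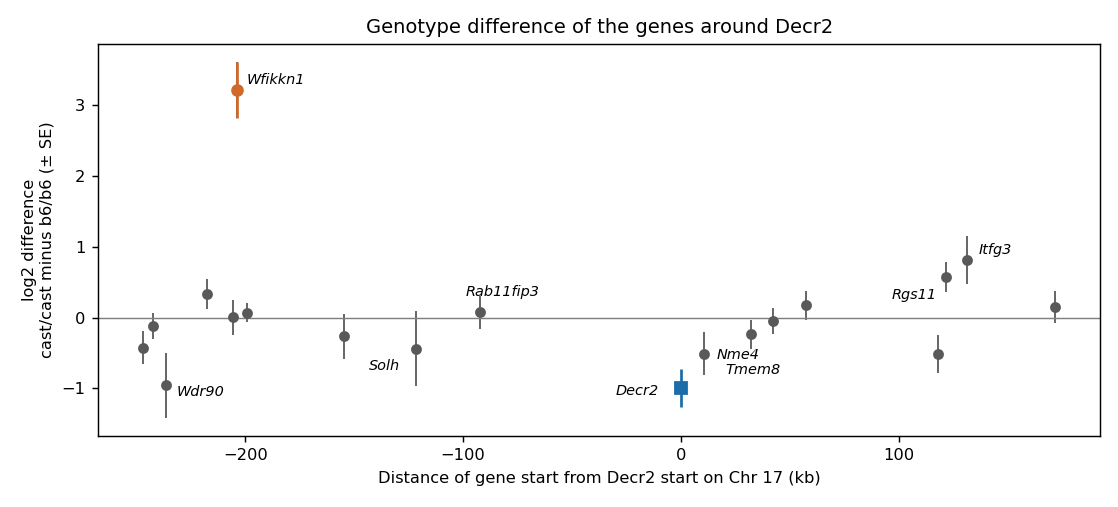
Log2 difference with SE (y axis, *cast/cast* minus *b6/b6*) of *Decr2* (blue square) and the 18 genes that start within 250 kb of it (x axis, distance between starts in kb). *Wfikkn1* (orange), at 3.22, was the 1 neighbour called by limma, and the genes nearest to *Decr2* lie between -0.51 and 0.08.

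Within each genotype, the 8 genes were compared with the intake of the same mice over the 10 d test, in kcal of the carbohydrate/protein (C/P) diet and in total kcal. Of the 32 correlations, 0 passed an adjusted *P* of 0.05 (permutation test, two-sided), and 5 by Pearson's *r* and 3 by Spearman's rho had a nominal *P* no higher than 0.05. Over the same 4 tests of every gene in the table, 12.6% by Pearson's *r* and 10.7% by Spearman's rho did so. The range of intake within a genotype was narrowed by the selection of the mice. *Decr2* had *r* = -0.58 with C/P intake in *b6/b6* mice (permutation *P* = 0.0576, adjusted *P* = 0.307, rho = -0.30, rho *P* = 0.334), and *r* = -0.19 without the 2 mice farthest from the median. With total intake in the same mice *Decr2* had *r* = -0.48 (permutation *P* = 0.123, adjusted *P* = 0.437, rho = -0.64, rho *P* = 0.0299, adjusted rho *P* = 0.438), and *r* = -0.57 without the 2 farthest. In *cast/cast* mice *Decr2* had *r* = -0.04 with C/P intake (permutation *P* = 0.900) and *r* = 0.48 with total intake (permutation *P* = 0.106, adjusted *P* = 0.426), the latter 0.09 without the 2 farthest mice.

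The lowest *P* of the 32 was that of *Scp2* with total intake in *cast/cast* mice (*r* = 0.74, permutation *P* = 0.00605, adjusted *P* = 0.194, rho = 0.80, rho *P* = 0.00256), with *r* = 0.56 without the 2 farthest mice. Among *cast/cast* mice *Scp2* was lowest in replicates 6 (1147) and 4 (1198), which are among the 4 libraries that stood apart. Their total intakes were 119.0 and 104.0 kcal, and this correlation was not computed without them. *Abcd3* had *r* = -0.61 with total intake in the 12 *cast/cast* mice (permutation *P* = 0.0330, adjusted *P* = 0.236, rho = -0.60, rho *P* = 0.0425) and *r* = -0.81 without the 2 farthest. The *cast/cast* mice lowest for *Abcd3*, replicates 1, 2, 12 and 9, had total intakes of 133.1, 127.1, 127.6 and 127.0 kcal, the highest 4 of the 12.

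Marker genes of the cell types and neighbouring tissues that the dissection could hold were summed in each mouse. In bulk tissue, fewer cells of a type and less RNA per cell cannot be told apart. Of 10 hypothalamic peptide genes 9 were in the table, with sums of 5895 to 34741 normalized counts per mouse, and all 5 neuron markers were there. Of the 11 lists, 0 differed between the genotypes at an adjusted *P* of at most 0.05 (permutation test on log2 sums, two-sided). The lowest *P* were those of the ependyma and tanycyte sum (3 of 4 markers in the table, log2 difference 0.54, permutation *P* = 0.0707, adjusted *P* = 0.444) and of the blood sum (3 of 5 markers, log2 difference -0.91, permutation *P* = 0.0807, adjusted *P* = 0.444). Of the 49 single markers 1 was called by limma, against 1.49% of all genes. It was *Tcf7l2*, a thalamus marker named after its values were seen, at 205.7 ± 138.4 normalized counts for *b6/b6* and 105.0 ± 57.9 for *cast/cast* (SD, n = 12 each, log2 difference -0.84, SE 0.29, limma *P* = 0.0071, adjusted *P* = 0.449). The thalamus sum itself had a log2 difference of 0.05 (permutation *P* = 0.652). Both edgeR and DESeq2 called 3 of the 49 single markers, *Tcf7l2* and the blood markers *Hba-a1* and *Hba-a2*, the latter pair also named after their values were seen, at ratios of *cast/cast* to *b6/b6* means of 0.35 and 0.33. Over all 13998 genes edgeR called 330 lower and 60 higher in *cast/cast*, and DESeq2 315 and 82. The part of *Tcf7l2* in the values of *Decr2* was not tested.

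Some of these sums moved with the libraries in which *Decr2* and *Hsd17b4* were highest. The blood sum was 4999 in *b6/b6* replicate 6 and 1704 in replicate 12, against 121 to 1044 in the other *b6/b6* and 105 to 782 in the *cast/cast* mice. The astrocyte sum was 22434 and 23141 in the pair, against 14403 to 19735 in the other *b6/b6* mice, and the microglia sum 1478 and 1381, against 1920 to 3030. The ependyma and tanycyte sum was 114.0 and 60.9, against 157.4 to 346.3, and the choroid plexus sum 220.5 and 226.2, against 116.5 to 207.5. Replicate 12 alone was above the other *b6/b6* mice for the hypothalamic peptides, at 29361 against at most 20820, and for the pituitary markers, at 469.8 against at most 183.6. The sums of neurons (32679 and 37456, against 26232 to 45783), oligodendrocytes, endothelium and thalamus were within the range of the other *b6/b6* mice in both. The part of these differences in the values of *Decr2* and *Hsd17b4* was not tested.

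The promoters of the genes, taken as 250 bases before to 50 after the start in RefSeq annotation of GRCm38.p6, were searched on both strands for AGGTCA, the half-site of nuclear receptors such as the peroxisome proliferator-activated receptors. It occurred in 1 of 7 promoters of 6 of the genes, that of *Scp2*, and in 16.3% of all 32851 promoters, and the promoter of *Decr2* held none in this window. No promoter of *Decr1* or *Hsd17b4* was among the 7, so these genes were not searched.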

How the data were processed

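Hypothalamus libraries of 24 F2 mice were analysed, grouped by the genotype in the labels. The signal values are, as deposited by the authors, tag hits per gene divided by the DESeq size factor of each library, after alignment of SOLiD SAGE tags to RefSeq mRNA and GRCm38. The cast alleles were thus read against a reference of the other strain. The deposited table also holds the authors' comparison, a ratio (fold change), its log2 and p-values as deposited by the authors, none of which was used. Repeated rows of a gene were identical, so 19529 rows gave 13998 genes. In every library 100% of values were whole multiples of 1 step (tolerance 0.01), which gave tag hits for the count tests. No 2 libraries agreed within sampling noise (lowest chi-square per degree of freedom of 276 pairs, 14.6). The lowest mean of any gene was 6.03.

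All genes were fitted with limma 3.58.1 (trend) on log2(normalized count + 1), without a covariate. The study used DESeq, and limma stands in because the deposited values are normalized. Adjustment was by Benjamini-Hochberg. edgeR 4.0.16 (quasi-likelihood) and DESeq2 1.42.0 on tag hits, pseudocounts of 0.5 and 5, a minimum mean of 20, rescaled totals, study number as a covariate and subsets of mice were alternatives. For both count tools the 1.5-fold limit applied to their own log2 fold change. On simulated counts (13998 genes, 200 changed) limma called 79% of genes changed 2-fold, 94% of those changed 3-fold and 0.75% of unchanged ones. There the 1.5-fold limit applied to the log2 difference. The counts were drawn independently for each gene, without variation that genes share within a library. These rates therefore need not hold for the real libraries. Permutation tests used 100000 resamples. Replicate numbers follow accession order. Each mouse gave 1 library.

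The members and lists were chosen with earlier results of these data known. Genes named were the 8 members, called genes and the 2 of lowest *P* in each pathway list, called neighbours and the 2 nearest on each side, the 5 most correlated with *Decr2* among genes with a mean of at least 50, and those stated as named later. R 4.3.3 and Python were used.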

Additional observations from a re-analysis of the deposited data

How the results depend on the processing

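No paired analysis was possible because the labels give the mice no shared replicate numbers. The alternatives that leave out libraries or add principal components were chosen after seeing the data. In all alternatives the log2 difference of each of the 8 genes stayed within 1 SD (between mice of a genotype) of its value in the main fit. That is a wide limit, since the SD was 0.69 for *Decr2* and 0.75 for *Hsd17b4*, against SEs of 0.27 and 0.29 in the main fit. *Hsd17b4* went from -0.41 in the main fit to -1.13 in the low-number and 0.15 in the high-number mice. *Decr2*, *Abcd3* and *Ehhadh* were lower in *cast/cast* in all alternatives, while *Hsd17b4*, *Acaa1a*, *Scp2*, *Ech1* and *Decr1* changed sign in at least 1. For *Decr2* the log2 differences ran from -0.55 without the 4 libraries to -1.54 in the low-number mice, and from -0.85 to -1.08 when single mice were left out. The ratio of *Decr2* means, *b6/b6* over *cast/cast*, was 1.41 in the high-number mice (log2 difference -0.61) and 1.42 without the 4 libraries. Both ratios were under the 1.5-fold limit. Rescaled totals moved the median of all genes to -0.11, and relative to it *Decr2* was at -0.97. Over all genes edgeR called 330 lower and 60 higher in *cast/cast* and DESeq2 315 and 82, against 142 and 66 by limma.

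Of the pathway lists, each with 0 called, the peroxisomal beta-oxidation list had 1 with edgeR, and the assembly list 1 in the low-number mice and 2 at a nominal *P* no higher than 0.05. The list of other peroxisomal enzymes had 1 with edgeR, with DESeq2 and in the model with study number, 2 in the low-number mice (*Gnpat* and *Far1*), 2 at a nominal *P* no higher than 0.05, and 0 to 1 when single mice were left out (1 without *b6/b6* replicate 2). The mitochondrial list had 1 with edgeR, with DESeq2, in the low-number mice and at a nominal *P* no higher than 0.05, and 0 to 1 when single mice were left out (1, *Cpt2*, without *b6/b6* replicate 1, 4, 5, 7, 8 or 10 or *cast/cast* replicate 11). The neighbours, with 1 called, had 3 with edgeR and with DESeq2, 2 in the low-number mice and when study number was a covariate (*Itfg3* added in both), 2 without *b6/b6* replicates 6 and 12 (*Nme4* added), 4 at a nominal *P* no higher than 0.05, and 1 to 2 when single mice were left out (2, with *Rgs11*, without *b6/b6* replicate 1 or 4 or *cast/cast* replicate 2, 9 or 10). Without the 4 libraries 1 study number slope of the 8 passed against 0, as did 15.2% of all genes. The cause of these changes was not tested. Depth limits the lowest genes most, with 12 to 69 tag hits per mouse for *Ehhadh* and 21 to 210 for *Hsd17b4*, and tags carry no molecular identifiers.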

Other observations

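The tag of *Decr2* given above holds, at bases 9 to 24, a stretch of 16 bases, CTCACAACCATCTGTA, that recurs in the expected tags of other genes. It was found in the tags of 37 of the 13104 genes of the table that were matched to a tag, *Decr2* included. Among the other 36 genes, *b6/b6* replicates 6 and 12 exceeded the other *b6/b6* mice by a median of 0.42 on the log2 scale, and 14 genes (38.9%) did so by more than 1, against a median of 0.05 and 20.4% among the 13067 genes without the stretch. Between the genotypes the median log2 difference of the 36 genes was 0.01, against -0.02. The stretch was chosen after the values of *Decr2* were seen, and the difference was not tested.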
